A study of Orbicella faveolata with 56 samples.

Results

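The comparison set the offshore against the inshore transplant site in 5 corals of offshore origin (C1, C2, C4, C5 and C6), with all fragments at 32 °C. Orbicella faveolata is a colonial reef coral of the Caribbean and the Florida Keys, and fragments of a coral are pieces of the same animal. The members are 10 RNA sequencing libraries of 56 in the series, of which 55 have a matched column in the deposited tables. They were chosen from the labels by origin, site and temperature and paired by coral. The groups were the 5 libraries of these corals from the offshore site and their 5 libraries from the inshore site, all of offshore origin and at 32 °C. Each coral carried a genotype label of its own, O1, O2, O4, O5 and O6, and a single collection site supplied them all, so origin and that site cannot be told apart. In both groups the temperature had been changed over 7 days and then held for 6 days before sampling. How long the fragments had stayed at the transplant sites is not given in the sources used here. A sixth offshore-origin coral, C3, was left out because its label for the inshore site at 32 °C has no matching column. Heat tolerance after transplantation between reefs is the subject that the study's title names.

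Reef-building corals house single-celled algae of the family Symbiodiniaceae inside their gut cells, and these algae feed the animal with products of photosynthesis. A coral species can hold several genera of these algae, and the mix can shift with light, temperature and place. Durusdinium trenchii is a member of the family known for tolerance of heat, and corals that hold it tend to bleach less readily in warm water. RNA from a coral fragment therefore comes from the animal and its algae together. In such bulk samples, fewer algal cells and less RNA per algal cell cannot be told apart.

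The authors deposited 2 tables of estimated counts, 1 taken here as the host and 1 named for D. trenchii. Algae of other genera have no separate counts, so the D. trenchii share and ratio are not measures of all algae together. The files pair no row identifier with a gene name, so rows are given by identifier and no function is assigned to any of them. Host totals in the 10 libraries ran from 4108080 to 7239230 counts. None of the 10 libraries stood apart from the rest in its correlation with the others, although 6 of the 55 did. All 10 carry library numbers from 17 to 56. What these numbers mark is not given in the sources used here.

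The clearest site difference lay in the share of counts in the D. trenchii table. At the offshore site this table held 0.0916% of the counts of both tables in C1, 0.0643% in C2, 0.291% in C4, 0.356% in C5 and 0.0510% in C6. At the inshore site it held 5.08% in C1, 12.9% in C2, 23.8% in C4, 18.5% in C5 and 7.52% in C6. Every offshore-site library lay below every inshore-site library, with an offshore-site mean of 0.171% ± 0.142 and an inshore-site mean of 13.6% ± 7.69 (SD, n = 5 each). Binomial 95% Wilson intervals of these shares, which cover counting error only, spanned at most 0.0105 percentage points for offshore-site and 0.0719 for inshore-site libraries.

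Within a coral, the ratio of D. trenchii to host counts was 58.4-fold lower at the offshore site in C1, 231-fold in C2, 107-fold in C4, 63.5-fold in C5 and 160-fold in C6. The mean site difference of the log2 ratio was -6.75 ± 0.851 (SD, n = 5 corals), lower in 5 of 5 corals. A two-sided exact sign-flip test gave p = 0.0625, the smallest p that 5 pairs allow. With 5 pairs this test cannot pass 0.05, whatever the size of the difference.

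The few D. trenchii counts at the offshore site were spread unevenly over the rows of that table. In C1, C2 and C6 between 494 and 684 of 52359 rows had any count, and the 10 most abundant rows held 48.1 to 52.03% of the total. In C4 and C5 7529 and 8174 rows had a count, and the 10 most abundant rows held 14.3 and 14.8%. At the inshore site 32254 to 39316 rows had a count, and the 10 most abundant rows held 2.72 to 2.95% in the 5 corals. How much of the low offshore-site totals comes from reads of other sources was not tested.

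**Figure D1:**
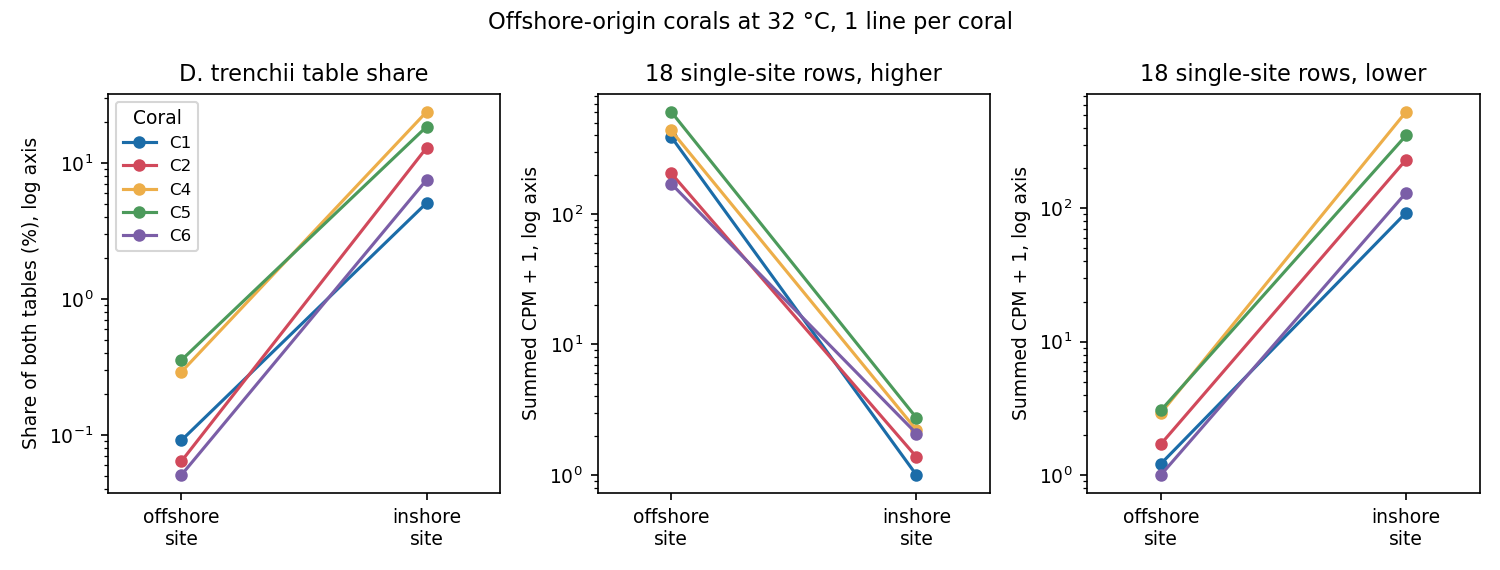
Each line joins the offshore-site (left) and inshore-site (right) library of a coral at 32 °C, on log axes. The left panel plots the share of counts in the D. trenchii table (percent). It runs from 0.0510 to 0.356 at the offshore site and from 5.08 to 23.8 at the inshore site. The other panels plot summed CPM plus 1 of the 18 host-table rows found in these corals at the offshore site alone (middle). The 18 found in these corals at the inshore site alone are on the right. In the left panel all 5 lines run the same way and the groups do not overlap, while in the other panels the rule that chose the rows fixes the direction, and the height of each coral's point is what varies.

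The host transcriptome as a whole differed little between the sites. Libraries of the same coral at both sites had a median correlation of 0.947 (range 0.937 to 0.963, 5 pairs) in log2 levels across rows, which are not independent replicates. Different corals at the same site had a median of 0.874 (range 0.860 to 0.885, 20 pairs). For 10 of the 10 libraries the nearest of all 55 came from the same coral. Of 26189 rows tested, 90% had a fitted log2 fold change between -0.46 and 0.52, around a median of 0.01. By estimate alone 395 rows (1.51%) differed over 2-fold.

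A small set of host-table rows differed by very large amounts. At an adjusted p under 0.05, 54 rows passed the test, which is 0.206% of those tested, by edgeR's quasi-likelihood test with coral as a block and Benjamini-Hochberg adjustment over all rows. Of these, 21 rose at the offshore site (0.0802% of rows tested) and 33 fell (0.126%). The unadjusted p was under 0.05 for 1979 rows (7.56%). The fitted median log2 fold change was 7.80 for the 21 rows that rose and -7.07 for the 33 that fell. Counting rows at 0 in every library of a site at the bound that 3 counts per library set, the medians were 7.24 and -6.57, against 0.01 over all rows.

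All 54 rows went the same way in 5 of 5 corals. The CPM of the offshore-site and inshore-site libraries did not overlap for 21 of the 21 rows that rose and for 30 of the 33 that fell. These rows were called on the same 10 libraries, so their shared direction and separation follow from the call and add no support. Over all tested rows 206 (0.787%) did not overlap, 79 of them higher (0.302%) and 127 lower (0.485%) at the offshore site. Whether this share exceeds what chance gives was not tested. CPM here are counts divided by the library's host-table total, times 1000000.

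**Figure D2:**
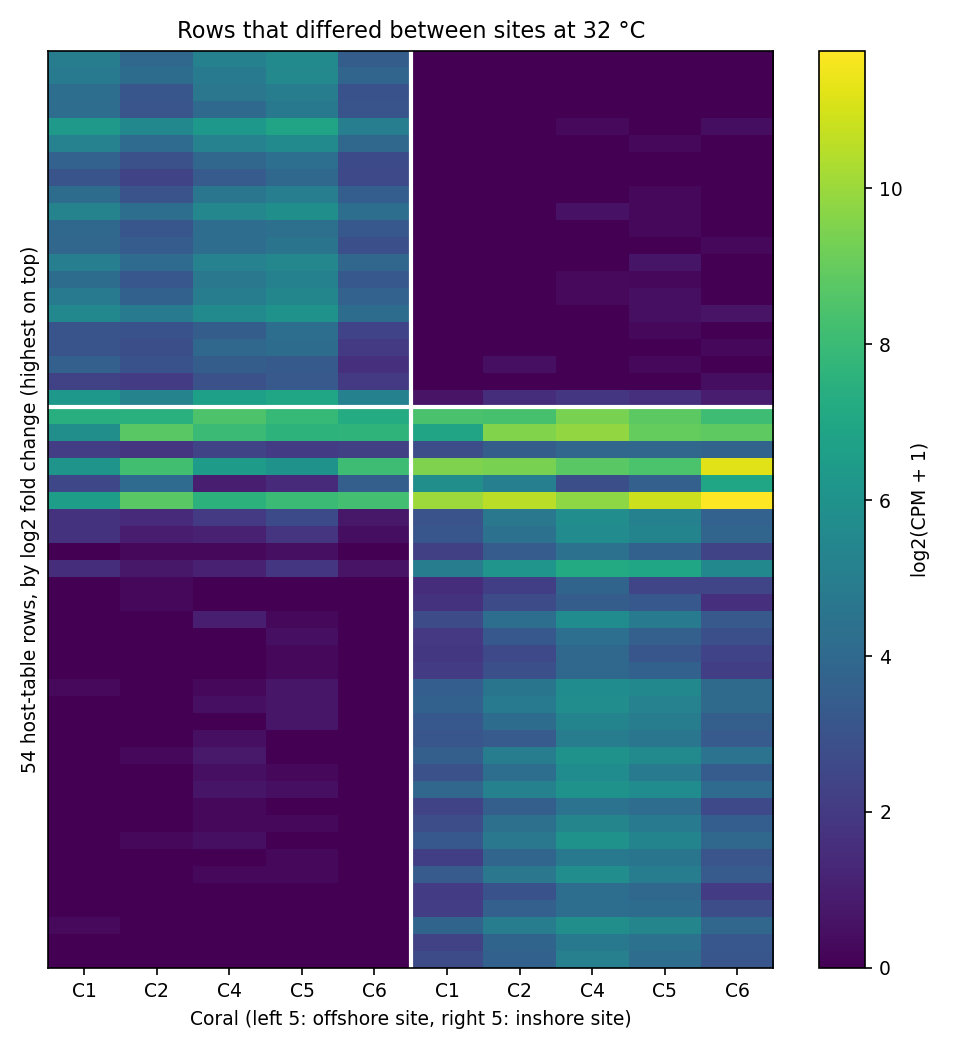
Colour gives log2(CPM + 1) of the 54 rows that passed the test, in the 5 offshore-site libraries (left of the white line) and the 5 inshore-site libraries (right), with rows sorted by log2 fold change. The 21 rows above the horizontal line are at or near 0 (at most 2.68 CPM) in all inshore-site libraries, and most of the 33 below it are near 0 in all offshore-site libraries.

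In these 5 corals most of these rows were present at a single site. A row was called single-site when it had under 3 counts in each of the 5 libraries at a site and at least 10 counts in each of the 5 at the other. By this rule, set after earlier results were known, 18 of the 21 rows that rose were found at the offshore site alone. This holds for the 5 compared corals, since most inshore-origin corals had these rows at the inshore site too (levels below). Of the 18, 6 had 0 counts in all 5 inshore-site libraries compared. Likewise 18 of the 33 rows that fell were found at the inshore site alone, and 4 of them had 0 counts in all offshore-site libraries. At the floor of 3 counts per library, the 18 single-site rows that rose were at least 8.96- to 124-fold higher at the offshore site, with a median of 28.5. The 18 that fell were at least 9.38- to 52.7-fold lower, with a median of 22.3.

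The row with the largest fitted rise was OFAVBQ_DN158100_c0_g1. It stood at 29.6 CPM in C1, 14.8 in C2, 34.7 in C4, 47.6 in C5 and 10.1 in C6 at the offshore site, and at 0 in all 5 corals at the inshore site. The groups do not overlap, and C5 was the highest and C6 the lowest of the offshore-site libraries. It was at least 48.4-fold higher at the offshore site against the floor of 3 counts per library (edgeR adjusted p = 0.00587). C3, outside the comparison, had 23.95 CPM at the offshore site at 32 °C. Inshore-origin corals averaged 25.2 CPM of this row at the inshore site at 32 °C (n = 8).

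The other named row that rose, chosen by the same rule for its high mean level, was OFAVBQ_DN211920_c9_g1. It had 76.0, 36.95, 99.8, 121 and 34.7 CPM at the offshore site and 0.553, 1.88, 2.68, 2.13 and 0.899 CPM at the inshore site, in C1, C2, C4, C5 and C6. Here the inshore-site libraries were low but not empty, with 4 to 11 counts each, and the groups do not overlap. The log2 fold change was 5.48 ± 0.311 (SE), 44.6-fold, with an edgeR adjusted p of 0.000110. The single-site rows that rose kept this order of corals in their sum, with C5 highest and C6 lowest.

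Among the rows that fell, OFAVBQ_DN196190_c0_g1 had the largest fitted fold change. It was at 0 in all 5 corals at the offshore site and at 5.53 CPM in C1, 11.6 in C2, 33.6 in C4, 17.2 in C5 and 7.91 in C6 at the inshore site. C4 was the highest and C1 the lowest inshore-site library, as for the D. trenchii share. The row was at least 26.3-fold lower at the offshore site (edgeR adjusted p = 0.0160), and C3 had 0.326 CPM at that site. Its adjusted p was 0.0948 without C4 and 0.0538 without C5, within a range of 7.78e-61 (no low-count filter) to 0.815 (symbiont ratio as a term) over its alternatives.

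OFAVBQ_DN197209_c0_g3 was chosen for the highest mean CPM among the eligible rows that fell, and it had counts in every library. Row lengths are not given, so levels are not compared between rows. It had 93.7, 426, 190, 260 and 308 CPM at the offshore site and 1070, 1479, 881, 1870 and 3483 CPM at the inshore site, in C1, C2, C4, C5 and C6. All offshore-site values lay under the lowest inshore-site value, and C6 at the inshore site was the highest. The log2 fold change was -2.78 ± 0.274 (SE), 6.88-fold lower at the offshore site (edgeR adjusted p = 0.00413). The call was lost without C5 (adjusted p = 0.0517), without the coral block (0.0658) and in the fit over all 55 libraries without the ratio (0.202). Over its alternatives the adjusted p ranged from 1.66e-137 (no low-count filter) to 1 (symbiont ratio as a term).

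**Figure D3:**
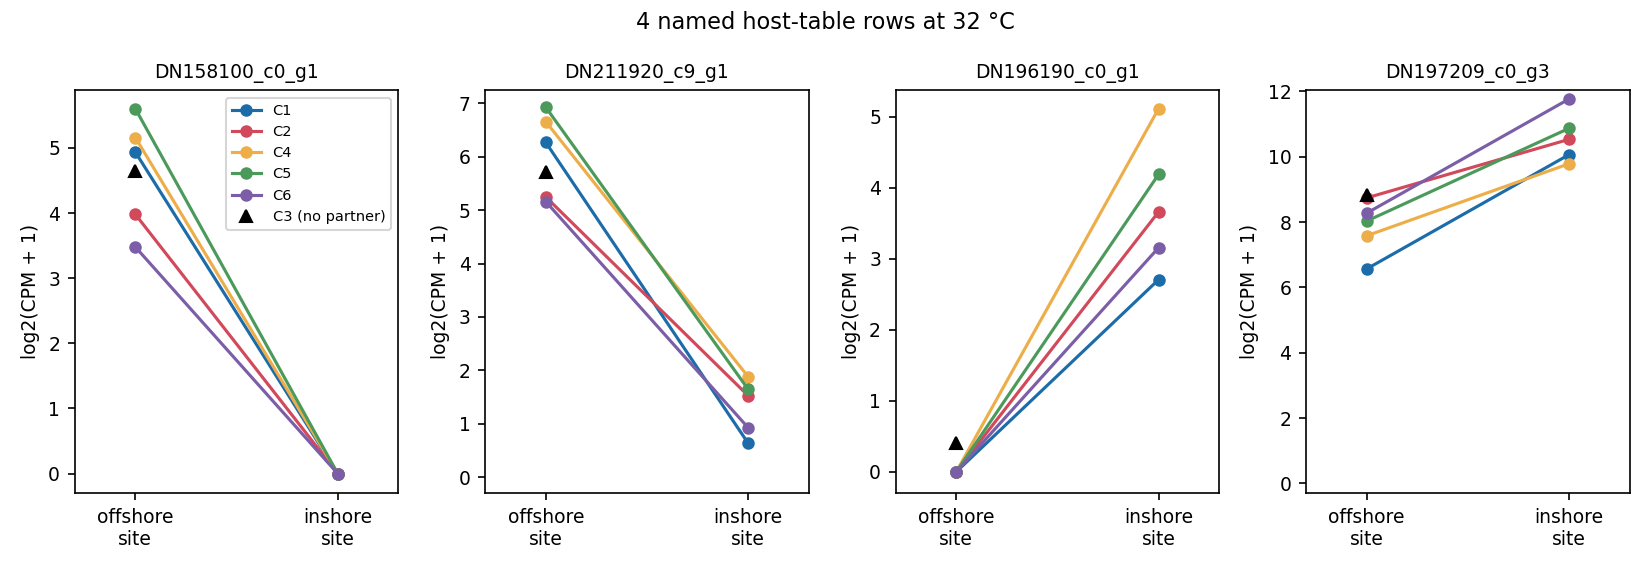
Log2(CPM + 1) of the 4 named rows in the offshore-site (left) and inshore-site (right) library of each coral at 32 °C, with a line per coral, and a triangle for C3, which has no partner library. OFAVBQ_DN158100_c0_g1 is at 0 in all 5 inshore-site libraries and OFAVBQ_DN196190_c0_g1 in all 5 offshore-site libraries of the compared corals, while OFAVBQ_DN197209_c0_g3 has counts at both sites, with a log2 fold change of -2.78.

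The sums over the single-site rows show how the levels varied between corals, while their direction and separation are fixed by the rule. The 18 rows that rose summed to 390 CPM in C1, 204 in C2, 435 in C4, 607 in C5 and 170 in C6 at the offshore site, and to 0, 0.376, 1.22, 1.74 and 1.08 CPM at the inshore site. The 18 rows that fell summed to 0.213, 0.704, 1.91, 2.05 and 0 CPM at the offshore site and to 91.9, 231, 530, 352 and 130 CPM at the inshore site, in the same order of corals. At the offshore site 1, 4, 7, 8 and 0 of the rows that fell had any count. At the inshore site the order of the 5 corals by the sum of rows that fell (C4, C5, C2, C6, C1) was their order by D. trenchii share. At the offshore site the order by the sum of rows that rose (C5, C4, C1, C2, C6) was also the order by D. trenchii share, although these rows are high where that share is low.

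Beside each of these groups stands how its rows moved with the D. trenchii table in libraries outside the comparison. Across the 32 libraries of the 8 inshore-origin corals, which share corals in sets of 4, 426 host-table rows had an absolute correlation over 0.7 between log2 level and log2 ratio of D. trenchii to host counts, both as deviations from group means. Of the 202 such rows tested in the offshore-origin corals at 32 °C, 30 were called (14.9%), against 0.0924% of the other rows. They included 29 of the 33 rows that fell and 1 of the 21 that rose. For the single-site rows the correlation ran from 0.82 to 0.99 (median 0.98) among those that fell and from -0.71 to -0.52 (median -0.61) among those that rose. Which organism these host-table rows come from was not tested.

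The counts of calls were also taken with the symbiont ratio accounted for. In these corals the ratio and the site cannot be told apart, since no offshore-site share reached an inshore-site share. With the ratio as a term in a fit over all 55 libraries, 30 rows were called at 32 °C and all 30 were higher at the offshore site, 21 of them among the 54. That fit without the term called 41 higher and 65 lower rows. Leaving out the rows that go with the ratio, which by construction removes most rows that fell, left 22 called rows, 18 higher and 4 lower.

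Of the rows that fell, 4 did not go with the ratio in the inshore-origin corals. Their mean levels ran from 159 to 256 CPM at the offshore site and from 411 to 1757 CPM at the inshore site, and they had counts in all 10 libraries, as did 5 of the 29 rows that fell and go with the ratio. Their log2 fold changes ran from -2.78 to -0.92, and 2 of the 4 did not overlap between the groups. OFAVBQ_DN197209_c0_g3 is the one with the largest change. In the fit over all 55 libraries without the ratio as a term, its log2 fold change was -2.46 (edgeR adjusted p = 0.202). With that term it was -0.55 (edgeR adjusted p = 1), so the call was already lost in that fit without the term. At 30 °C in the same corals their log2 fold changes ran from -1.28 to -0.31, and edgeR and DESeq2 each called 0 of the 4, with an unadjusted p under 0.05 for 2 (edgeR). The difference between temperatures had unadjusted p of 0.0369 to 0.0562 for these rows and an adjusted p of 1 for all 4 (edgeR), so a difference between temperatures was not shown.

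Several rows that rose share most of their identifier with a row that fell. Rows whose identifiers differ only in the last part, after "_g", are called a component here. In 8 components 1 member rose and another fell, a pattern noticed after the values were seen. These 16 rows are 29.6% of the 54. The 8 components are 0.266% of the 3013 components with at least 2 tested rows, a share of components and not of rows. No component had more than 1 called row without holding both directions. The members that rose took 99.8% of the counts of these pairs in C1 (of 1246 counts), 100% in C2 (of 821), 99.4% in C4 (of 1426), 99.6% in C5 (of 1888) and 100% in C6 (of 612) at the offshore site. At the inshore site they took 0 of 467 counts in C1, and 0 of 815 in C2. Set at 3 counts of the total, the limits that these zeros allow are 0.642% in C1 and 0.368% in C2, and the upper ends of their Wilson 95% intervals are 0.816% and 0.469%. In the other three inshore-site libraries they took 0.0720% in C4 (of 1388), 0.462% in C5 (of 1299) and 1.22% in C6. Wilson 95% intervals of these shares reached no lower than 98.8% in the offshore-site libraries and no higher than 2.63% in the inshore-site libraries. The pairs were chosen for opposite calls in these same 10 libraries. The direction and separation of these shares therefore follow from the choice and are no separate support. How the quantifier divided reads between rows of a component was not tested.

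The same 5 corals at 30 °C gave the site comparison in libraries that were not used at 32 °C. There 108 of 25574 rows passed the test (0.422%), 54 higher and 54 lower at the offshore site (0.211% each). The even split changed with the fit. Without C5, 104 rows were higher and 57 lower, while leaving out another coral gave 38 to 62 higher and 48 to 54 lower. DESeq2 called 112 higher and 74 lower, no low-count filter gave 438 and 195, and no coral block 32 and 54. RLE factors kept the split nearly even, at 53 and 54. Of the 54 rows called at 32 °C, 48 were also called at 30 °C, which is 88.9% of the 54 and 44.4% of the 108. All 48 went the same way, and so did the other 6 by their estimate. Of the 60 rows called at 30 °C alone, 30 were tested at 32 °C and all 30 had the same sign there. Library numbers are uneven at 30 °C, where 4 of the 5 inshore-site and 2 of the 5 offshore-site libraries are numbered 1 to 16. Only C1 has both of its libraries within that range, and no coral has both above it.

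**Figure D4:**
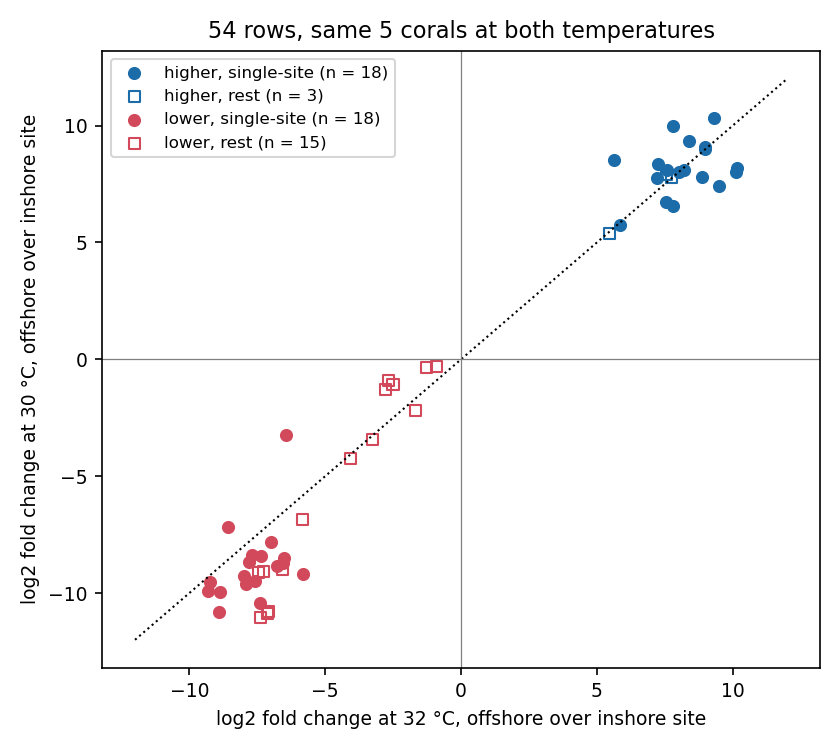
Log2 fold changes (offshore over inshore site) of the 54 rows at 32 °C (x axis) and in the same corals at 30 °C (y axis), with filled circles for single-site rows, open squares for the rest, and a dotted line of equality. All 54 rows keep their sign at both temperatures, and 48 passed the test at 30 °C too.

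The levels of the single-site rows were mostly lower at 32 than at 30 °C, at the site where they were present. The rows that rose summed at the offshore site to 390 CPM at 32 °C and 1110 at 30 °C in C1, 204 and 477 in C2, 435 and 734 in C4, 607 and 522 in C5, and 170 and 574 in C6. The rows that fell summed at the inshore site to 91.9 CPM at 32 °C and 418 at 30 °C in C1, 231 and 475 in C2, 530 and 583 in C4, 352 and 341 in C5, and 130 and 210 in C6. C5 was the exception in both sets. The D. trenchii share at the inshore site moved alike, at 5.08% at 32 °C and 20.1% at 30 °C in C1, 12.9% and 22.5% in C2, 23.8% and 26.8% in C4, 18.5% and 17.1% in C5, and 7.52% and 11.1% in C6. Its part in the sums was not tested. These sums were not tested, since the rows were chosen on the 32 °C libraries.

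A direct test of whether the site effect differed between temperatures called 0 of 30060 rows (0%) by edgeR, with 943 at an unadjusted p under 0.05, and 52 by DESeq2. For rows at 0 in all libraries of a site at both temperatures it cannot decide, since their difference cannot be estimated. The SE of the log2 difference was 11598 for OFAVBQ_DN196190_c0_g1 and 9969 for OFAVBQ_DN122952_c0_g1. In simulated data made from these libraries, a small random set of rows was set to differ, among 29138 tested. The test found 19.2% of those set to differ 2-fold and 65.0% of those set to differ 4-fold. The simulated site effect at 32 °C itself was found for 41.2% of rows set to differ 2-fold and 100% of those set at 4-fold, among 25090 tested. Site effects of 2-fold were thus often not detectable with 5 corals. The simulated counts followed the fitted model, which real counts need not, so these shares may be too high. At 32 °C 80 tested rows differed over 4-fold by estimate. The called rows over 4-fold were 21 that rose and 30 that fell.

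The named rows at 30 °C were chosen by the same rule. OFAVBQ_DN122952_c0_g1 had 52.5, 23.9, 34.7, 22.7 and 26.8 CPM at the offshore site in C1, C2, C4, C5 and C6, and 0 in all 5 at the inshore site, at least 55.2-fold higher. At 32 °C it had 7.30 to 26.03 CPM at the offshore site and 0 in all 5 corals at the inshore site. In these 5 corals the row was thus found at the offshore site alone at both temperatures. Inshore-origin corals at the inshore site averaged 13.6 CPM of it at 30 °C and 11.8 CPM at 32 °C (n = 8 each).

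OFAVBQ_DN216566_c2_g1 was called at 30 °C and not at 32 °C. At 30 °C it had 54.2, 413, 178, 251 and 150 CPM at the offshore site and 15.6, 237, 72.6, 83.8 and 77.6 CPM at the inshore site. The groups overlap, but each coral was higher at the offshore site, with a log2 fold change of 1.29 ± 0.148 (SE, edgeR adjusted p = 0.00417). The call was lost without the coral block (adjusted p = 0.999973) and with the ratio as a term (0.569), and the lowest adjusted p over its alternatives was 7.17e-17 (no low-count filter). At 32 °C its log2 fold change was 0.31 ± 0.209 (edgeR adjusted p = 0.765), with C5 and C6 lower at the offshore site. The difference between temperatures was -0.90 ± 0.288 on the log2 scale (unadjusted p = 0.00594, adjusted p = 1, edgeR), so it was not shown.

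Of the rows that fell at 30 °C, OFAVBQ_DN84687_c0_g1 was at 0 in all 5 corals at the offshore site and at 59.5, 57.6, 72.6, 44.7 and 29.2 CPM at the inshore site, at least 86.7-fold lower. At 32 °C it had 0 to 0.764 CPM at the offshore site and 10.6 to 64.5 CPM at the inshore site. OFAVBQ_DN210803_c3_g3 had 1.51, 1.39, 0.597, 1.22 and 0.744 CPM at the offshore site and 159, 135, 192, 110 and 67.1 CPM at the inshore site at 30 °C. It was 115-fold lower at the offshore site there (log2 fold change -6.85 ± 0.231, SE, edgeR adjusted p = 3.67e-06). At 32 °C its log2 fold change was -5.84 ± 0.356 (SE, edgeR adjusted p = 0.000147). Neither row overlapped between the sites at either temperature. With the ratio as a term the 30 °C log2 fold change was -2.13 for OFAVBQ_DN84687_c0_g1 and 0.021 for OFAVBQ_DN210803_c3_g3 (edgeR adjusted p = 1 for both). The call was thus lost for both, and the estimate for OFAVBQ_DN210803_c3_g3 was near 0. Without that term both kept their calls under every alternative run.

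The offshore-origin corals were also set beside inshore-origin corals at the same sites and temperature. The site difference of the log2 ratio of D. trenchii to host counts at 32 °C was -6.75 ± 0.851 in offshore-origin corals (SD, n = 5) and -1.01 ± 1.78 in inshore-origin genotypes (SD, n = 6). The difference between origins was -5.75 (two-sided exact permutation p = 0.00433, the smallest that 5 against 6 units allow, 0.00866 after Benjamini-Hochberg adjustment over the 2 ratio tests). With the 3 corals of genotype In1 as separate units it was -4.94 (exact permutation p = 0.00622). The ratio was 79.1-fold lower at the offshore site in A3 and 52.2-fold lower in A5, both of genotype In1, so ratios this much lower were not confined to offshore-origin corals. It was 1.55-fold lower in A6, 2.22-fold in B1 and 2.79-fold in B3. In B2, B4 and B6 it was not lower, with log2 site differences of 0.01, 0.01 and 0.78. The D. trenchii share at the inshore site was already 0.246% in B1, 0.450% in B3, 0.119% in B4 and 0.0934% in B6. Ratios in these 4 corals had little room to fall. The share there was 13.99% in A3, 9.75% in A5, 14.7% in A6 and 21.5% in B2. A different response to site and a different starting share cannot be told apart in the difference between origins.

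The single-site rows were also read in the inshore-origin corals at 32 °C. These 8 corals are of 6 genotypes, since A3, A5 and A6 share In1. In them the 18 that rose summed to 0.408 to 499 CPM at the inshore site (mean 258, n = 8). At the offshore site they summed to 49.8 to 1126 CPM (mean 639, n = 8). The 18 that fell summed to 0 to 455 CPM at the inshore site (mean 148) and 0 to 436 CPM at the offshore site (mean 78.1). Presence at a single site was thus not general in these corals. All 18 single-site rows that rose in offshore-origin corals were higher at the offshore site in each of the 8 corals, on the scale of log2(CPM + 1). Of the 18 that fell, 18 were lower at the offshore site in A3 and A5, 17 in A6, 14 in B1, 12 in B3, 11 in B2, 7 in B4 and 0 in B6. A row at 0 at both sites cannot be lower: 0 of the 18 had a count in the offshore-site and 7 in the inshore-site library of B4, and 1 and 0 in those of B6. Over all 26189 rows tested, 31.04 to 70.5% were higher and 28.4 to 68.0% lower at the offshore site in these corals. The ends of these ranges come from B1 and B3, of which the offshore-site library of B1 and the inshore-site library of B3 stand apart from the rest, as does the inshore-site library of B4. A direct test of whether the site effect differed between origins called 0 of 31746 rows (0%) by edgeR, with 2283 at an unadjusted p under 0.05 and a smallest adjusted p of 0.188, and 56 by DESeq2. With A3, A5 and A6 summed as a single unit, edgeR called 0 of 31057 rows (0%). Simulated differences between origins were found for 8.25% of the few rows set to differ 2-fold and 49% of those set at 4-fold, among 30886 tested.

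**Figure D5:**
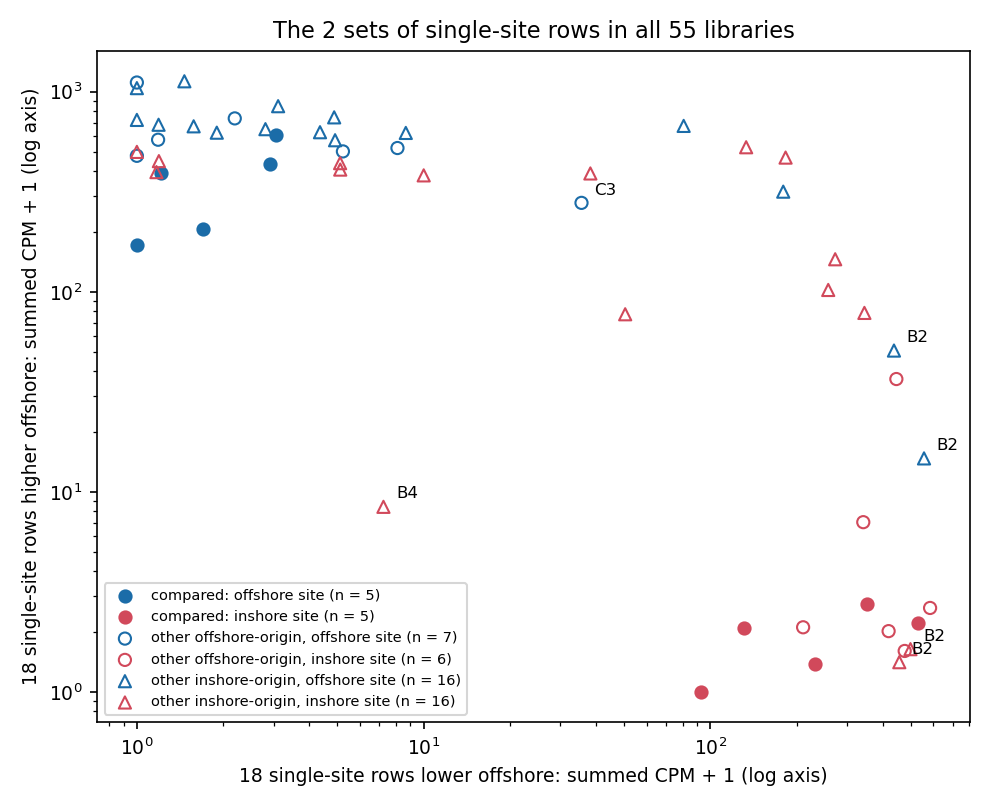
Each point is 1 of the 55 libraries, by the summed CPM plus 1 of the 18 rows that fell (x axis) and of the 18 rows that rose (y axis) in offshore-origin corals at 32 °C, on log axes. The 5 offshore-site libraries of the comparison lie at the upper left (170 to 607 CPM on the y axis) and the 5 inshore-site libraries at the lower right (91.9 to 530 CPM on the x axis), and the labelled points are those of C3, B2 and B4.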

How the data were processed

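RNA was extracted from coral tissue with a column kit and made into stranded mRNA libraries, per the labels' protocols. The values are estimated counts that the authors deposited without normalization, in tables named for kallisto with 87440 host and 52359 D. trenchii rows. The submitters' processing notes name Trimmomatic 0.36 and RSEM. The quantifier's version, the assembly and any annotation were not given in the sources used here. Of the values, 74.7% of the host table and 99.3% of the D. trenchii table were whole numbers, and all were rounded before any count test. Each table has 56 columns, of which 1 matched no label and was not used.

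Rows kept by filterByExpr at a minimum count of 10 were tested in edgeR 4.0.16 (R 4.3.3) with TMM factors. The quasi-likelihood test held coral as a block, because the libraries compared come from pieces of 1 animal, and p-values were adjusted over all rows by Benjamini-Hochberg, with a threshold of 0.05. The test at 32 °C has 4 residual degrees of freedom. P-values rest on the spread between these 5 corals, which edgeR moderates for each row with the spread of all rows tested. Fold changes and their SE come from this fit, while printed CPM are scaled to the whole host table. DESeq2 1.42.0 was an alternative, which also ran without the low-count filter. Interactions tested site by temperature in the same corals and site by origin at 32 °C in 13 corals. The symbiont ratio is the D. trenchii total over the host total, tested by exact two-sided permutation. The scripts were tested on simulated data. No library pair of a group was the same within sampling noise (lowest chi-square per degree of freedom 13.3).

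Named rows passed the test, went the same way in 5 of 5 corals and averaged a log2 CPM of 1 or more. Per direction they are the row with the largest absolute log2 fold change and, of the rest, the one with the highest mean CPM. The members, rules and lists were chosen with earlier results of these data known. Gene lists could not be used, since no file or table here pairs identifiers with gene names. Floors are 3 counts per library, and intervals and floors cover counting error only.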

Additional observations from a re-analysis of the deposited data

Results flagged for a closer look

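The site difference of the log2 ratio of D. trenchii to host counts at 32 °C differed between origins by -5.75 (offshore minus inshore origin, exact permutation p = 0.00433), being lower at the offshore site in 5 of 5 offshore-origin corals and in 3 of 6 inshore-origin genotypes. A signal also appeared in a library outside the comparison. The 32 °C library of C3 from the offshore site, which has no partner, held 2.22% of its counts in the D. trenchii table, against 0.0510 to 0.356% in the 5 compared corals at that site. No group of samples held a value far enough from the others to be listed here.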

How the results depend on the processing

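At 32 °C the 54 called rows became 136 with DESeq2, 862 without the low-count filter, 22 without rows that go with the symbiont ratio, 106 in a fit over all 55 libraries and 30 in that fit with the ratio as a term. The fit with no replicate block, so without the pairing by coral, called 49 (23 higher, 26 lower). Leaving out a coral gave 36 to 74 (33 higher without C6, against 21, and 53 lower without C1, against 33), and 27 of the 54 (13 higher, 14 lower) were called with every coral left out in turn. At 30 °C the 108 became 186 with DESeq2, 633 without the filter, 43 without rows that go with the ratio (all 43 higher) and 30 with the ratio as a term, and 86 to 161 with a coral left out. Site by temperature, with 0 rows, gave 52 with DESeq2 and 22 without the filter. Site by origin, with 0 rows, gave 56 with DESeq2, 150 without the filter, 23 over all 55 libraries and 12 with the ratio as a term. The cause of these changes was not tested. RLE factors kept every count within 1.5 times, as did no replicate block. Of 93 alternative values for the 8 named rows, 82 kept direction and call, 10 lost the call alone and 1 lost both call and sign. The last was OFAVBQ_DN210803_c3_g3 at 30 °C, with a log2 fold change of 0.021, near 0, with the ratio as a term. The ratio's site difference ran from -6.97 to -6.48, and its difference between origins from -5.97 to -4.94. Few D. trenchii counts at the offshore site (2865 to 17415) limit what can be said of that table there.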

Other observations

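The paired rows of the 8 components with a member in each direction also varied among inshore-origin corals at 32 °C. Members high in offshore-site fragments took 99.8% of the pair counts there and 26.5% at the inshore site in A3, 99.9% and 71.1% in A5, and 66.1% and 33.9% in A6, which all carry genotype In1. In B2 they took 9.56% at the offshore site and 0 of 1523 counts at the inshore site, which allows up to 0.197%, beside a D. trenchii share of 21.6% and 21.5%. B6 held 100% at both sites, beside a D. trenchii share of 0.161% and 0.0934%. The D. trenchii share of the same libraries was 0.205% in the offshore-site and 13.99% in the inshore-site library of A3, 0.207% and 9.75% in A5, and 10.02% and 14.7% in A6. Each of these values is a single library, and the part of the D. trenchii share in the balance was not tested.

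B4 at the inshore site at 32 °C held few counts of either kind. Its single-site rows summed to 7.41 CPM for those that rose and 6.24 CPM for those that fell, and the component pairs had 34 counts in all, against 2347 in its offshore-site library. This library is among the 6 of 55 that stand apart. C3 at the offshore site at 32 °C held both sets together, with 277 CPM in rows that rose and 34.5 CPM in rows that fell, and the pair members that rose took 88.2% of 1199 pair counts.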
